A study of Arabidopsis thaliana with 11 samples.

Results

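The genes described are 10 enzymes and enzyme partners of chlorophyll biosynthesis in Arabidopsis thaliana: HEMA1, CHLH, CHLI1, GUN4, CHLM, CRD1, PORB, PORC, CAO and CHLG. They were chosen by name for their place in the pathway and found by gene code among the 22160 genes of the deposited count table, where all 10 were present, and all 10 passed the filter on low counts. RNA was measured by strand-specific mRNA sequencing of whole seedlings, 10 days old, grown without treatment on Murashige and Skoog medium with sucrose. The genotypes were the xpo4-2 cpr5 double mutant (n = 3), the cpr5 single mutant (n = 3), the xpo4-2 single mutant (n = 2) and the Col-0 wild type (n = 3). XPO4 encodes an exportin, a carrier of proteins out of the nucleus, and CPR5 a nuclear membrane protein whose loss switches on immune responses. The labels name no allele for cpr5 and no transgene. They do not say how many seedlings or sowings stood behind a library. The p-values therefore set a difference between genotypes against the spread among these libraries, a spread that may be technical in part. Gene positions are those of RefSeq's TAIR10.1 annotation, 1-based.

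Chlorophyll is made in plastids from glutamate. Glutamyl-tRNA reductase opens the route to 5-aminolevulinate, later enzymes build protoporphyrin IX from it, and there the route divides: ferrochelatase inserts iron for heme, and magnesium chelatase inserts magnesium for chlorophyll. In green tissue the enzymes of the magnesium branch are made together with the proteins that bind chlorophyll, because free intermediates are dangerous in light. The enzymes described are encoded in the nucleus and imported into the plastid.

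Library totals lay between 16922732 and 23088104 counts. XPO4 itself had 2.09, 0 and 2.27 counts-per-million (CPM, scaled for library composition) in xpo4-2 cpr5 and 1.00 and 4.80 CPM in xpo4-2, against 22.9, 18.3 and 27.7 CPM in cpr5 and 19.6, 21.3 and 23.5 CPM in wild type. CPR5 was read in every library, at 14.98 to 24.6 CPM in the 6 libraries that carry cpr5 and 8.08 to 14.3 CPM in the others, so its level gives no check of that label. Every marker of root and of green tissue was read in some library of each genotype, which the whole-seedling label calls for. Some root markers were near the floor in wild type. PLT2 had 0.060, 0.060 and 0.053 CPM there, and EXPA18 had 0 CPM in replicate 1. The 8 green tissue markers summed to 5153 to 7455 CPM in xpo4-2 cpr5, against 20994 to 22654 CPM in cpr5, 25471 to 32376 CPM in xpo4-2 and 16235 to 27248 CPM in wild type. The 13 root markers summed to 122 to 167 CPM in xpo4-2 cpr5, against 57.8 to 72.4, 59.5 to 98.5 and 26.6 to 63.0 CPM in those 3 genotypes. Within wild type, replicate 1 had the lowest root sum (26.6 CPM) and the highest green sum (27248 CPM). Replicate 3 of wild type had the highest root sum (63.0 CPM) and the lowest green sum (16235 CPM). PRP3 alone had 34.5 to 70.4 CPM of the sum in xpo4-2 cpr5. Relative to cpr5, 5 of the 13 had log2 fold changes below 0. By the test described below 2 of the 13 were higher and 0 lower, against 8.82% and 12.9% of all genes tested. Relative to wild type 6 of the 13 were higher and 0 lower, with a median log2 fold change of 1.68. In that comparison 18.1% of all genes tested were called higher and 19.1% lower. Relative to xpo4-2, 0 of the 13 were called, where 2841 of 21580 genes were higher and 3348 lower. In bulk seedlings fewer green cells and less RNA per green cell cannot be told apart, and the part of tissue makeup in the results was not tested.

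In xpo4-2 cpr5 seedlings, 8 of the 10 genes fell relative to cpr5, by 1.60-fold (CHLI1, a magnesium chelatase subunit) to 3.38-fold (CHLH, its porphyrin-binding subunit). GUN4, the activator of that enzyme, and CAO, which makes chlorophyll b, did not pass the test. A call here is a Benjamini-Hochberg adjusted p under 0.05 in edgeR's quasi-likelihood test over 21580 genes, of which 12.9% were called lower in this comparison. The median log2 fold change was -1.09 over the 10 genes and 0.01 over all genes tested. For 9 of the 10 genes the 3 double-mutant libraries lay below all 3 cpr5 libraries, a pattern that 24.0% of all genes tested showed.

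**Figure D1:**
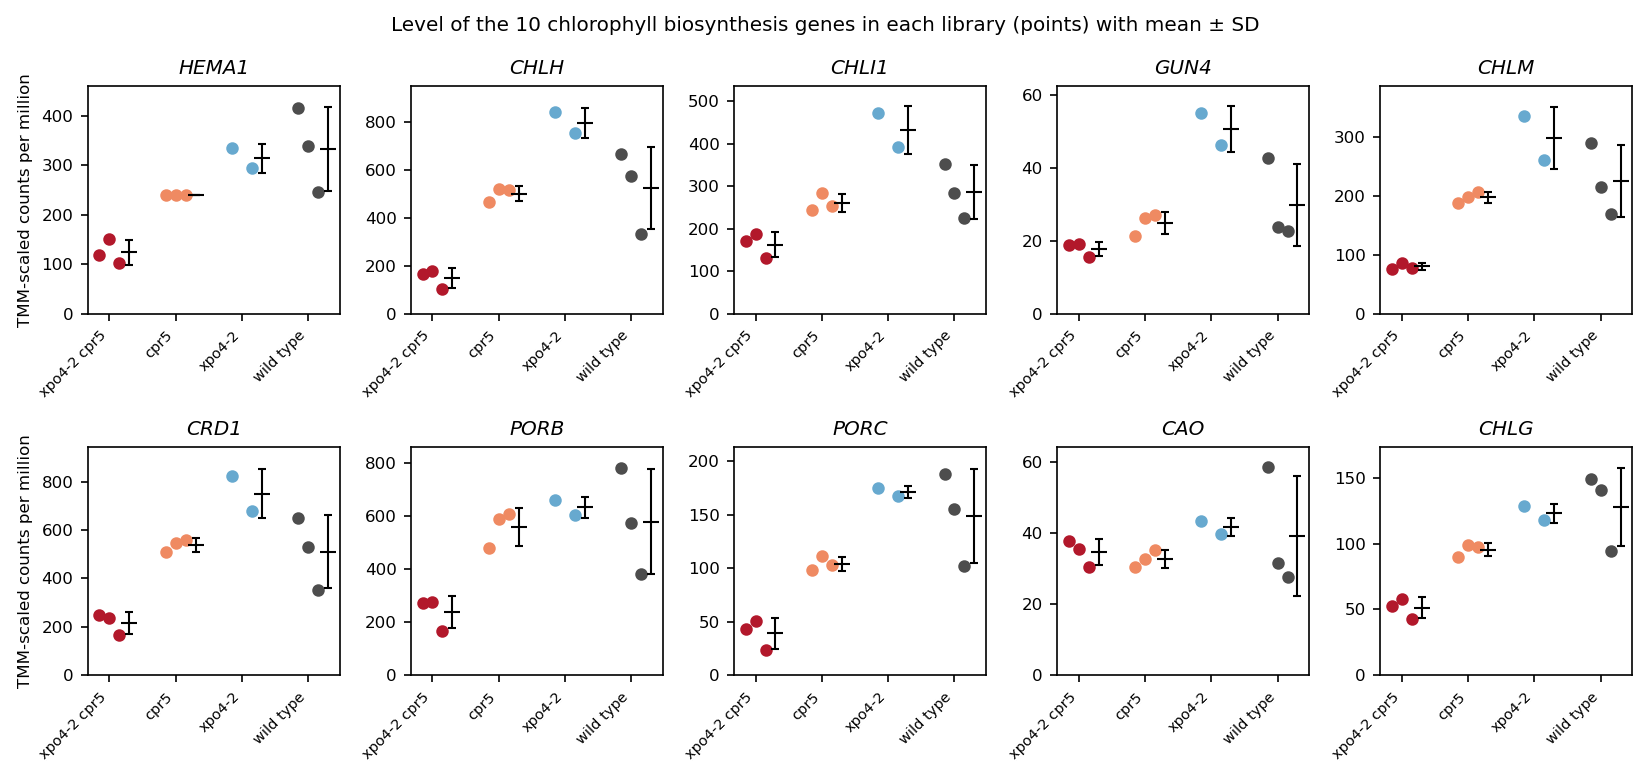
Composition-scaled CPM of the 10 genes in each library (points) with the mean and SD of each genotype, in the order xpo4-2 cpr5, cpr5, xpo4-2 and wild type. The double-mutant points lie lowest in 9 panels, and in CAO they overlap cpr5 and wild type but not xpo4-2.

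HEMA1 (AT1G58290, chr1:21623700-21626402), the glutamyl-tRNA reductase that starts the pathway, had 119, 150.2 and 102 CPM in xpo4-2 cpr5, against 240.4, 239.8 and 239.7 CPM in cpr5, 334 and 293 CPM in xpo4-2, and 415, 338 and 245 CPM in wild type. The highest double-mutant library lay below the lowest of all the others, and the cpr5 libraries were nearly equal. Its log2 fold change in xpo4-2 cpr5 was -0.96 relative to cpr5 (SE 0.194, adjusted p = 0.00651) and -1.43 relative to wild type.

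CHLH (AT5G13630, chr5:4387307-4392429), the large subunit of magnesium chelatase that holds the porphyrin, had 167, 177 and 102 CPM in xpo4-2 cpr5, against 465, 522 and 518 CPM in cpr5, 842 and 754 CPM in xpo4-2, and 668, 574 and 334 CPM in wild type. The groups did not overlap with the double mutant, whose mean was 149 ± 40.9 CPM (SD, n = 3) against 502 ± 31.9 CPM in cpr5 (SD, n = 3). Its log2 fold change relative to cpr5 was -1.76 (SE 0.264, adjusted p = 0.00133), the largest fall among the 10 genes. CHLI1 (AT4G18480, chr4:10201672-10203469), the ATPase subunit of the same enzyme, had 169.9, 188 and 131 CPM in xpo4-2 cpr5, against 243, 284 and 253 CPM in cpr5, 471 and 393 CPM in xpo4-2, and 351, 284 and 225 CPM in wild type. The double mutant was again lowest without overlap, but the gap to the nearest cpr5 and wild type libraries was narrow. Its log2 fold change of -0.68 relative to cpr5 (SE 0.185, adjusted p = 0.0254) was lost when any library of the 2 groups other than double-mutant replicate 2 was left out, with adjusted p between 0.0527 and 0.0947. It was also lost with no scaling for library composition (-0.42, adjusted p = 0.0848) and with limma on TPM (adjusted p = 0.107 to 0.173). GUN4 (AT3G59400, chr3:21948501-21949796), the porphyrin-binding protein that stimulates the chelatase, had 18.9, 19.1 and 15.6 CPM in xpo4-2 cpr5, against 21.5, 26.3 and 27.0 CPM in cpr5, 55.2 and 46.3 CPM in xpo4-2, and 42.9, 23.9 and 22.8 CPM in wild type. The double mutant was lowest here too, by a small margin. The log2 difference from cpr5 was -0.48 with a 95% interval of -0.99 to 0.03 (adjusted p = 0.171), and it passed the test when wild type replicate 1 was left out of the shared fit (adjusted p = 0.0332) or only the 2 groups were fitted (adjusted p = 0.0415).

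CHLM (AT4G25080, chr4:12876822-12878703), the methyltransferase that acts on magnesium protoporphyrin IX, had 76.3, 86.2 and 78.0 CPM in xpo4-2 cpr5, against 188, 198 and 207 CPM in cpr5, 336 and 261 CPM in xpo4-2, and 290.5, 216 and 170.1 CPM in wild type. Its replicates were close in both cpr5 backgrounds, and the fall relative to cpr5 was 2.46-fold (log2 -1.30, SE 0.183, adjusted p = 0.000909). CRD1 (AT3G56940, chr3:21076505-21078443), a subunit of the cyclase that closes the fifth ring of the pigment, had 247, 234 and 165 CPM in xpo4-2 cpr5, against 507, 547 and 559.7 CPM in cpr5, 823 and 678 CPM in xpo4-2, and 651, 530.4 and 350.4 CPM in wild type. No double-mutant library reached the lowest of the others, and the fall relative to cpr5 was 2.50-fold (adjusted p = 0.00260).

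PORB and PORC encode protochlorophyllide oxidoreductases, the enzymes that need light to make chlorophyllide. PORB (AT4G27440, chr4:13725546-13727440) had 272, 277 and 168 CPM in xpo4-2 cpr5, against 479, 589 and 610.2 CPM in cpr5, 662 and 606 CPM in xpo4-2, and 780.3, 575 and 383 CPM in wild type. PORC (AT1G03630, chr1:907523-909650) had 42.9, 50.8 and 23.3 CPM in xpo4-2 cpr5, against 98.6, 111 and 103 CPM in cpr5, 175 and 167 CPM in xpo4-2, and 188, 156 and 102 CPM in wild type. Both were lowest in the double mutant without overlap, and replicate 3 was the lowest of its libraries for each. They fell relative to cpr5 by 2.34-fold (PORB, adjusted p = 0.00787) and 2.67-fold (PORC, adjusted p = 0.00520).

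CAO (AT1G44446, chr1:16848308-16851271), chlorophyllide a oxygenase, had 37.8, 35.6 and 30.6 CPM in xpo4-2 cpr5, against 30.4, 32.6 and 35.3 CPM in cpr5, 43.4 and 39.9 CPM in xpo4-2, and 58.7, 31.7 and 27.6 CPM in wild type. The double mutant overlapped both cpr5 and wild type, and wild type replicate 1 stood above all other libraries. The log2 difference from cpr5 was 0.08 with a 95% interval of -0.45 to 0.61 (adjusted p = 0.851), an interval that leaves out falls of the size seen for HEMA1 and CHLG. CHLG (AT3G51820, chr3:19215930-19219128), chlorophyll synthase, which joins the phytol tail, had 52.9, 58.2 and 42.5 CPM in xpo4-2 cpr5, against 89.6, 98.8 and 97.3 CPM in cpr5, 128 and 118 CPM in xpo4-2, and 149, 140.5 and 94.1 CPM in wild type. It was lowest in the double mutant without overlap and fell 1.86-fold relative to cpr5 (adjusted p = 0.00544).

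The 7 genes other than CHLI1, GUN4 and CAO passed the test against cpr5 in all 21 alternative analyses, which include leaving out each library. With no scaling for library composition the median of all genes moved up by 0.26 in this comparison, and the split of calls changed to 4247 higher and 1787 lower, against 1904 higher and 2778 lower with scaling. Relative to that median, GUN4 stood at -0.50 and CAO at 0.06, close to the scaled values. On length-scaled levels (transcripts-per-million, TPM) CAO had 25.2, 22.4 and 21.3 TPM in xpo4-2 cpr5, against 14.9, 16.9 and 19.3 TPM in cpr5. The groups did not overlap on that scale, and limma on log2(TPM + 0.5) gave a difference of 0.42 with an adjusted p of 0.162.

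The 250 bases before the annotated start of each gene were searched on both strands for a few short elements, named below. The following 4 windows are shown because CRD1 fell and CAO did not pass the test while both hold a G-box, because PORB holds the element CCAATC at 2 places, and because CHLH, with the largest fall, holds none of the elements. They are given 5′ to 3′ on the strand of the gene from RefSeq's TAIR10.1, and capitals mark the G-box (CACGTG) and CCAATC.
CRD1, chr3:21076255-21076504, plus strand: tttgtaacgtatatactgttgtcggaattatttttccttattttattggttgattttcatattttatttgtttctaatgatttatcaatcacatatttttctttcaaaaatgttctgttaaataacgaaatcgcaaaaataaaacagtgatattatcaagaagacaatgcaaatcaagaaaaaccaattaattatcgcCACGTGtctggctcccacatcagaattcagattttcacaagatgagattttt
CAO, chr1:16851272-16851521, minus strand: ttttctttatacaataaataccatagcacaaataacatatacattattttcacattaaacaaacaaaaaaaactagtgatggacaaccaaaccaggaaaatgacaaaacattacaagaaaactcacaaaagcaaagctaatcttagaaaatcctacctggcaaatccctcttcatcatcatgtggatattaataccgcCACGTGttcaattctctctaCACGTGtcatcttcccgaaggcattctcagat
PORB, chr4:13725296-13725545, plus strand: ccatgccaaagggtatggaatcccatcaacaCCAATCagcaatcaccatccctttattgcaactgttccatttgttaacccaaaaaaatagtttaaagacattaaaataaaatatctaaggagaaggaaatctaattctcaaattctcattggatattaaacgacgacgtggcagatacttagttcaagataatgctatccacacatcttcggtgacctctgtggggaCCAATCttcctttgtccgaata
CHLH, chr5:4392430-4392679, minus strand: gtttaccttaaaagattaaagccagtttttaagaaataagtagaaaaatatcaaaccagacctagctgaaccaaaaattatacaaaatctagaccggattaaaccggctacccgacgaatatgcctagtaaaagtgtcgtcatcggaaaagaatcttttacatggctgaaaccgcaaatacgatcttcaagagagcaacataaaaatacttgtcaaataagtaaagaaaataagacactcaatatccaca
The G-box, a core bound by HY5 and PIF factors, stood 52 bases before the start of CRD1, and 52 and 32 bases before that of CAO. It was thus in 2 of the 10 windows and in 6.49% of 27443 windows of all genes. CCAATC, tied to GLK factors in the literature, was in PORB (219 and 22 bases before the start) and GUN4 (13 bases), against 10.2% of all windows. The I-box GATAAG was in 0 of the 10 windows and in 12.3% of all. The W-box, TTGACC or TTGACT, was in CHLI1 and PORC, against 28.4% of all, and the evening element AAAATATCT was in PORB, against 2.36% of all. The windows of 6 of the 10 genes overlap a neighbouring gene, those of GUN4 and PORC along their whole length. A match of letters is a description and not evidence of binding.

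Relative to wild type, 9 of the 10 genes fell in xpo4-2 cpr5, where 19.1% of all genes tested were called lower and 18.1% higher. The log2 fold changes were -1.93 for PORC, -1.82 for CHLH, -1.49 for CHLM, -1.43 for HEMA1, -1.32 for CHLG, -1.28 for PORB, -1.25 for CRD1, -0.82 for CHLI1 and -0.74 for GUN4 (adjusted p = 0.0283). CAO was at -0.18 (adjusted p = 0.589), and with no scaling or on TPM its value was above 0, at 0.11 and 0.32. GUN4's call was lost in 9 of 21 alternatives, among them leaving out wild type replicate 1, which left a difference of -0.39 (adjusted p = 0.0880), and each double-mutant library in turn (adjusted p = 0.0510 to 0.0900). CHLI1's call was lost with limma (adjusted p = 0.0544 to 0.0952). Relative to xpo4-2, 9 genes fell as well, where 15.5% of all genes were called lower, with values of -2.42 for CHLH, -2.13 for PORC, -1.89 for CHLM, -1.80 for CRD1 and -1.27 to -1.51 for GUN4, CHLI1, PORB, HEMA1 and CHLG. CAO was at -0.26 (adjusted p = 0.506), and above 0 with no scaling (0.03) or on TPM (0.14). The double-mutant libraries lay below all wild type libraries for 9 genes and below both xpo4-2 libraries for 10, patterns that 23.2% and 27.8% of all genes tested showed. The 3 comparisons share the double-mutant libraries, so they are not independent.

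**Figure D2:**
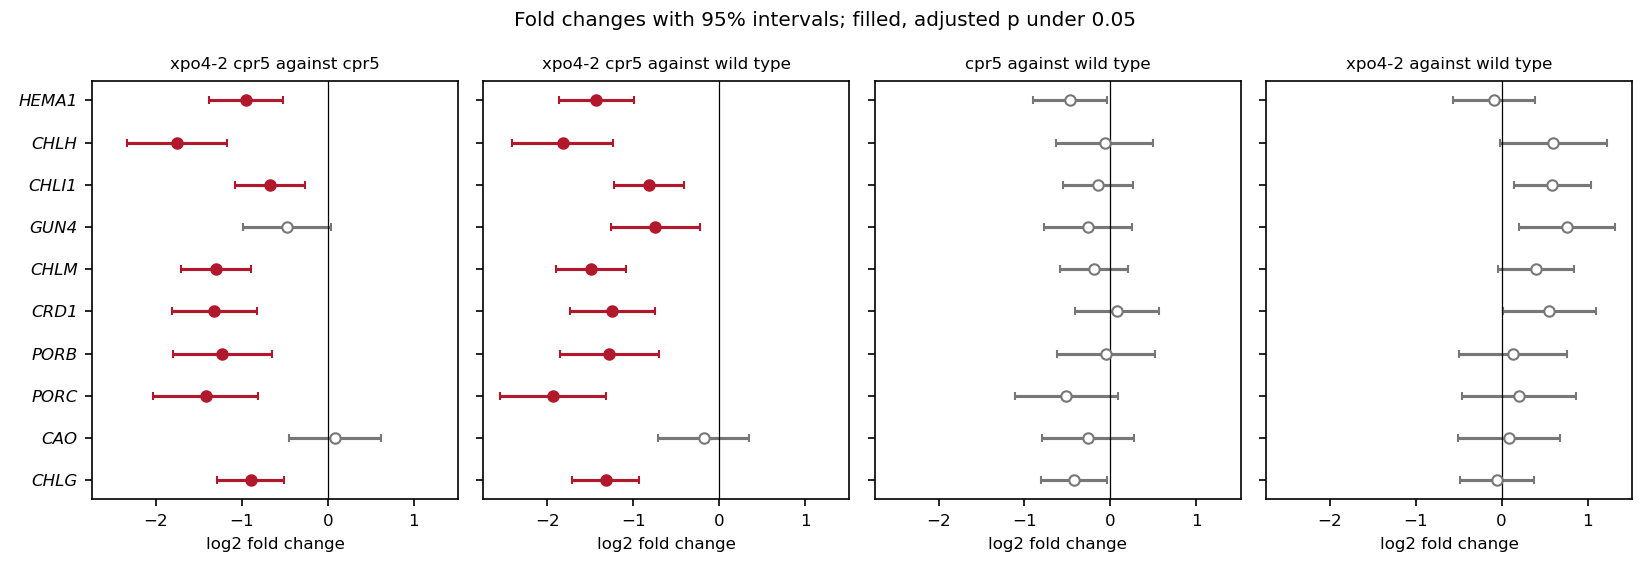
Log2 fold changes of the 10 genes with 95% intervals in 4 comparisons: xpo4-2 cpr5 against cpr5, xpo4-2 cpr5 against wild type, cpr5 against wild type, and xpo4-2 against wild type. Filled points passed edgeR's test (adjusted p under 0.05); they number 8, 9, 0 and 0, and only double-mutant comparisons hold any.

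Neither single mutant changed any of the 10 genes by the test. In cpr5, 0 of 10 genes were called relative to wild type by edgeR, DESeq2 or limma, where edgeR called 6.64% of all genes tested, and 2.34% lower. The log2 differences lay between -0.51 (PORC) and 0.07 (CRD1), and 2 genes had an unadjusted p under 0.05, HEMA1 at -0.47 and CHLG at -0.42. HEMA1 was also the single gene whose cpr5 libraries all lay below the wild type libraries, against 13.5% of all genes. Without wild type replicate 3, both HEMA1 (-0.65, adjusted p = 0.0348) and CHLG (-0.61, adjusted p = 0.0228) passed the test.

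In xpo4-2, 8 of the 10 genes had log2 differences above 0 relative to wild type, none past the test. GUN4 was at 0.76 (95% interval 0.21 to 1.32, adjusted p = 0.136), CHLH at 0.60 (adjusted p = 0.285), CHLI1 at 0.59 (adjusted p = 0.148) and CRD1 at 0.56 (adjusted p = 0.254) on the log2 scale. For these 4 genes both xpo4-2 libraries lay above all wild type libraries, against 16.4% of all genes tested, and 0 of the 10 genes were called by edgeR, DESeq2 or limma, where edgeR called 2.72% of all genes, and 0.755% higher. An unadjusted p under 0.05 was found by edgeR for 3 genes, GUN4, CHLI1 and CRD1. The other 6 genes lay between -0.09 (HEMA1) and 0.40 (CHLM). Wild type replicate 1 was the highest and replicate 3 the lowest wild type library for each of the 10 genes, and without replicate 1 GUN4 passed the test at 1.12 (adjusted p = 0.0124). With 2 xpo4-2 libraries, differences of this size were not resolved, which does not show that they are absent.

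The effect of xpo4-2 depended on the cpr5 background for 6 of the 10 genes. The difference of effects (xpo4-2 cpr5 minus cpr5, less xpo4-2 minus wild type) was -2.36 for CHLH (SE 0.383, adjusted p = 0.00594), -1.88 for CRD1 (SE 0.330, adjusted p = 0.00825) and -1.70 for CHLM (SE 0.268, adjusted p = 0.00535). These 3 genes passed in all 20 alternatives. PORC at -1.62 (adjusted p = 0.0330), CHLI1 at -1.27 (adjusted p = 0.0192) and GUN4 at -1.25 (adjusted p = 0.0491) also passed, and 5.51% of all genes tested were called in this direction and 3.2% in the other. PORB at -1.36 (adjusted p = 0.0530), CHLG at -0.84 (adjusted p = 0.0734) and HEMA1 at -0.87 (adjusted p = 0.0922) missed the threshold with edgeR, and all 3 passed both with DESeq2 and without wild type replicate 1. CAO was at -0.00, with an adjusted p of 1.00. The count of genes called ranged from 3, without xpo4-2 replicate 1 or without cpr5 replicate 2, to 9, without wild type replicate 1. PORC's call was lost in 7 of the 11 runs that leave out a library (adjusted p up to 0.109) and GUN4's in 10 of 11 (up to 0.174), while CHLI1's was lost without xpo4-2 replicate 1 (0.0911) and without cpr5 replicate 2 (0.0565).

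Per unit length, CRD1 and PORB had the highest levels in each genotype and GUN4 and CAO the lowest. Mean levels in xpo4-2 cpr5 were 203 TPM for CRD1, 199 TPM for PORB, 149 TPM for CHLI1, 82.9 TPM for CHLM, 73.8 TPM for HEMA1, 41.3 TPM for CHLG, 35.8 TPM for CHLH, 33.4 TPM for PORC, 22.96 TPM for CAO and 22.0 TPM for GUN4. The libraries of neighbours in that order overlapped except between CHLI1 and CHLM and between HEMA1 and CHLG. In cpr5 the order was CRD1 at 403, PORB at 369.9, CHLI1 at 187, CHLM at 159, HEMA1 at 113, CHLH at 95.5, PORC at 70.4, CHLG at 60.9, GUN4 at 24.2 and CAO at 17.1 TPM. Neighbours overlapped there for CRD1 and PORB, CHLI1 and CHLM, and PORC and CHLG. In xpo4-2 the levels ran downward through CRD1 at 539.7, PORB at 402, CHLI1 at 298, CHLM at 234, CHLH at 146, HEMA1 at 143, PORC at 114, CHLG at 75.8, GUN4 at 47.4 and CAO at 20.8 TPM, with no overlap between the 2 libraries of neighbours. In wild type they ran through PORB at 361.2, CRD1 at 360.7, CHLI1 at 194, CHLM at 173, HEMA1 at 148, PORC at 100.3, CHLH at 94.5, CHLG at 77.1, GUN4 at 27.4 and CAO at 19.04 TPM, and neighbours overlapped except CRD1 with CHLI1 and CHLG with GUN4.

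**Figure D3:**
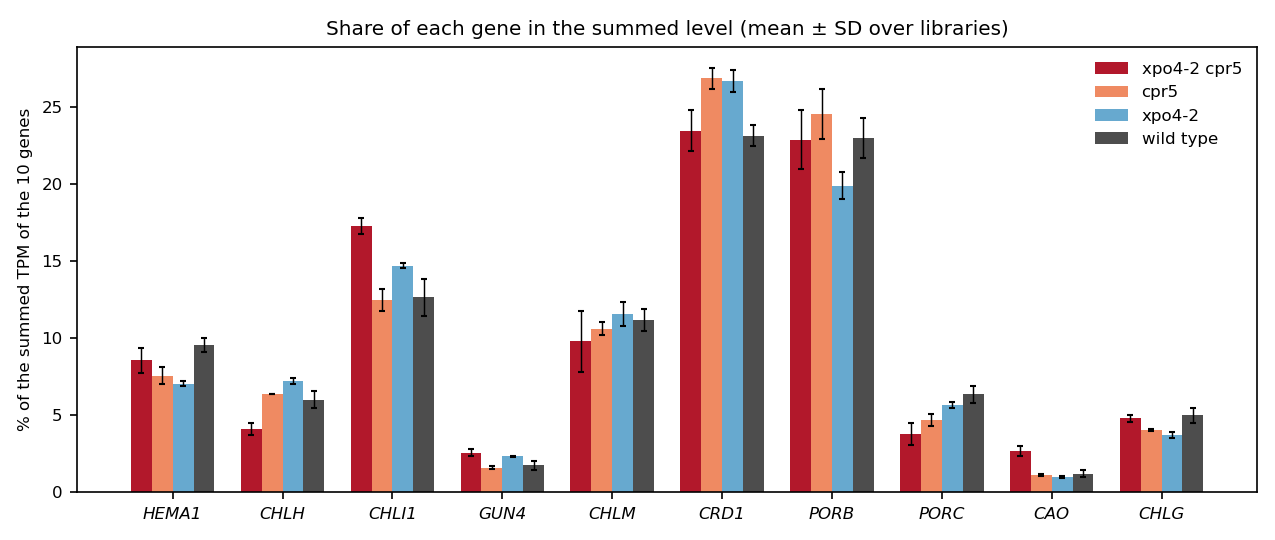
Share of each of the 10 genes in their summed TPM (percent, mean over libraries) in xpo4-2 cpr5, cpr5, xpo4-2 and wild type. CAO, CHLI1 and GUN4 hold larger shares in the double mutant, at 2.69%, 17.3% and 2.57%, and CHLH a smaller share, at 4.10%. For GUN4 the share in xpo4-2 is close, at 2.34%.

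The 10 genes together summed to 863 ± 131 TPM in xpo4-2 cpr5 (SD, n = 3), against 1499.6 ± 163 TPM in cpr5 (SD, n = 3), 2021 ± 73.5 TPM in xpo4-2 (SD, n = 2) and 1556 ± 389.8 TPM in wild type (SD, n = 3). Within that sum CHLH held 4.10% in xpo4-2 cpr5, against 6.37% in cpr5, 7.23% in xpo4-2 and 6.03% in wild type. CHLI1, which acts beside CHLH in magnesium chelatase, held 17.3% in xpo4-2 cpr5, against 12.5%, 14.7% and 12.7% in those genotypes. The transcripts of CHLH and CHLI1 thus stood in another proportion in the double mutant. Protein was not measured. CAO held 2.69% in xpo4-2 cpr5, against 1.14%, 1.03% and 1.21%. GUN4 held 2.57% in xpo4-2 cpr5, against 1.61%, 2.34% and 1.76%, with a narrow gap to xpo4-2. Set against the green tissue markers, the levels also diverged: CHLH had 2.31 CPM per 100 CPM of summed markers in xpo4-2 cpr5, against 2.31 in cpr5, 2.78 in xpo4-2 and 2.29 in wild type. CHLI1 had 2.55 in xpo4-2 cpr5, against 1.19, 1.498 and 1.28, and CAO had 0.551, against 0.151, 0.145 and 0.172. The markers' sum was itself lowest in the double mutant, so a gene that fell less than the markers rises in this proportion. How many of all genes do so was not counted. In the genes other than CHLH and PORC, every double-mutant library stood above every other library. In proportion to cpr5 and to wild type, the differences were widest for CAO, CHLI1 and GUN4 (0.283 in xpo4-2 cpr5, against 0.115, 0.176 and 0.132). In proportion to xpo4-2, CHLG (0.806 against 0.430) and HEMA1 (1.94 against 1.09) differed more than CHLI1 and GUN4. CHLM had 1.28 in xpo4-2 cpr5, against 0.910, 1.03 and 1.002. For CHLH the double mutant overlapped cpr5 and wild type, and PORC had 0.598 in xpo4-2 cpr5, against 0.479, 0.599 and 0.654, with overlap. These ratios are descriptions and carry no test.

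Several of the enzymes have a sister gene with a similar coding sequence, and reads can be split between sisters. The coding sequences of HEMA1 and HEMA2 were 83.1% identical, those of CHLI1 and CHLI2 81.8% and those of PORB and PORC 73.5%. The ratio of PORB to PORC, on summed TPM, was 5.27 to 6.87 in xpo4-2 cpr5 and 4.81 to 5.98 in cpr5, against 3.48 to 3.55 in xpo4-2 and 3.46 to 3.81 in wild type. All 6 libraries that carry cpr5 lay above the other 5. The difference in mean log2 ratio was 0.75 between xpo4-2 cpr5 and wild type and 0.53 between cpr5 and wild type, each with an exact two-sided permutation p of 0.1, the smallest that 3 against 3 libraries allow (0.3 after adjustment over 15 tests). The ratio of CHLI1 to CHLI2 lay between 4.13 and 4.89 in all libraries. The ratio of HEMA1 to HEMA2 was 1.23 to 1.59 in xpo4-2 cpr5 and 1.04 to 1.60 in cpr5, against 1.79 to 2.70 in xpo4-2 and 1.44 to 2.41 in wild type, and no difference could pass the threshold at these sample numbers.

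**Figure D4:**
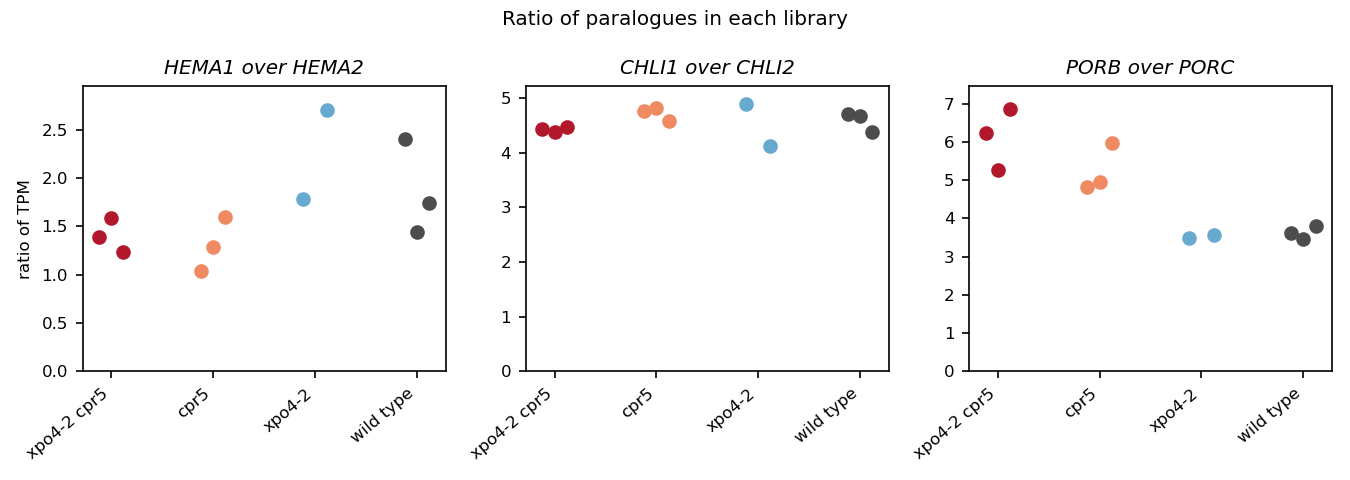
Ratios of PORB to PORC, CHLI1 to CHLI2 and HEMA1 to HEMA2 on summed TPM in each library, by genotype in the order xpo4-2 cpr5, cpr5, xpo4-2 and wild type. The ratio of PORB to PORC is 4.81 or more in every library that carries cpr5 and 3.81 or less in the others.

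The rest of the pathway was read from 8 lists with 50 genes, of which 48 were tested. In xpo4-2 cpr5 relative to cpr5, 24 of the 48 were called lower and 3 higher, against 12.9% and 8.82% of all genes tested. Of these 27 calls, 12 held whichever library was left out and 7 passed in every alternative. The 6 further genes of the chlorophyll branch all fell (median log2 fold change -1.15), and 5 of the 6, all but CHLI2, passed in every alternative. CHLP, the geranylgeranyl reductase that makes the phytol tail, had 321, 372 and 238 CPM in xpo4-2 cpr5, against 871, 924 and 895 CPM in cpr5, a log2 fold change of -1.53 (adjusted p = 0.00114). DVR, divinyl reductase, stood at -1.37, the cyclase partner LCAA at -0.92 and the third magnesium chelatase subunit CHLD at -0.81. The chelatase isoform CHLI2 was at -0.58 (adjusted p = 0.0338) and lost its call when single libraries were left out (adjusted p up to 0.114). PORA, the sister of PORB that is known from dark-grown seedlings, had 6, 0 and 2 counts in xpo4-2 cpr5, against 32, 50 and 24 counts in cpr5. Its fitted log2 fold change was -3.93 (adjusted p = 0.0101), and its size is uncertain at such counts.

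Upstream of the branch point, 3 of 3 tested genes of 5-aminolevulinate synthesis fell in xpo4-2 cpr5 relative to cpr5: HEMA2 (-1.12), GSA2 (-0.62) and GSA1 (-0.50). Of the steps to protoporphyrin IX, 7 of 9 fell (median -0.60), led by uroporphyrinogen synthase HEMD, which had 13.4, 13.5 and 12.6 CPM in xpo4-2 cpr5, against 35.7, 41.0 and 39.1 CPM in cpr5. HEMD (-1.55), HEME1 (-0.96) and HEMB1 (-0.55) held their calls in each run that left out a library. Leaving out cpr5 replicate 2 ended the calls of HEME2 (adjusted p = 0.149), HEMF1 (0.0918), GSA2 (0.0621), GSA1 (0.0596), HEMF2 (0.0590) and PPOX1 (0.0567), and other libraries ended some of these calls too. HEMC (-0.57, adjusted p = 0.0545) and PPOX2 (-0.11) were not called. Among partners of the enzymes, LIL3:1 (-0.78), LIL3:2 (-0.74), FLU (-0.63) and CLPC1 (-0.43) were called lower and AT4G17840 (0.51) higher, and all 5 lost the call without cpr5 replicate 2 (adjusted p = 0.0584 to 0.105). FLU is the feedback inhibitor of glutamyl-tRNA reductase, and the LIL3 proteins hold CHLP and PORs at the membrane.

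In the heme and bilin branch 0 of 7 genes were called in xpo4-2 cpr5 relative to cpr5 by edgeR. Over all genes tested 12.9% were called lower and 8.82% higher. The log2 fold change was below 0 for 6 of the 7, with a median of -0.38. By edgeR 1 gene, FC2, had an unadjusted p under 0.05. FC2, HO2 and HO3 were also tested with DESeq2 and limma, and 0 of the 3 passed. In a fit of only these 2 groups HO2 (-0.44, adjusted p = 0.0320) and HO3 (0.90, adjusted p = 0.0362) passed. Relative to wild type the ferrochelatase FC2 (-1.03) and the heme oxygenase HO2 (-0.71) were lower and the heme oxygenase HO3 was higher. HO3 had 23.3, 27.1 and 20.7 CPM in xpo4-2 cpr5, against 18.6, 9.06 and 10.4 CPM in cpr5, 0.834 and 2.04 CPM in xpo4-2, and 0.482, 2.16 and 7.47 CPM in wild type. Both genotypes that carry cpr5 thus lay above both that do not. Among the 10 chlorophyll genes, all but CAO had every double-mutant library below those of the other genotypes. Double-mutant libraries lay below those of a single other genotype for 23.2% to 27.8% of all genes tested. The share for the other genotypes together was not counted. In the siroheme branch UPM1 fell (-0.69, adjusted p = 0.00169) and SIRB was at -0.25. In the chlorophyll b cycle the reductases HCAR (-0.81) and NOL (-2.97) fell, NOL with 2.69, 0 and 3.49 CPM in xpo4-2 cpr5, against 16.3, 16.9 and 15.9 CPM in cpr5, and NYC1 was at 0.02. Leaving out replicate 1 (adjusted p = 0.0511) or replicate 2 (adjusted p = 0.0551) of cpr5 ended NOL's call.

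Of 9 transcription factors known to act on chlorophyll genes, 1 was called lower and 2 higher in xpo4-2 cpr5 relative to cpr5. Such calls were made for 12.9% and 8.82% of all genes tested. The factor called lower was GLK1, an activator of many chlorophyll genes. It had 23.3, 25.6 and 28.2 CPM in xpo4-2 cpr5, against 37.1, 44.6 and 42.0 CPM in cpr5, 47.3 and 40.5 CPM in xpo4-2, and 57.6, 61.1 and 53.8 CPM in wild type. The double mutant was lowest and wild type highest without overlap, and the log2 fold change was -0.68 relative to cpr5 (adjusted p = 0.00392, held in each run that left out a library, lost with limma at 0.0925 to 0.0932) and -1.16 relative to wild type. GLK1 was also lower in cpr5 than in wild type (-0.48, adjusted p = 0.0458), a call lost when any library but wild type replicate 3 and double-mutant replicate 3 was left out (adjusted p = 0.0534 to 0.173). The sister gene GLK2 was higher in xpo4-2 cpr5 than in wild type (1.08). In that comparison 2 of the 9 factors were called higher and 1 lower, against 18.1% and 19.1% of all genes tested. GNC, an activator, and PIF3, known as a repressor of chlorophyll genes in the dark, were higher in xpo4-2 cpr5 than in cpr5. GNC had 10.4, 10.0 and 12.6 CPM in xpo4-2 cpr5, against 1.81, 2.64 and 6.04 CPM in cpr5, and PIF3 had 29.0, 26.2 and 40.1 CPM, against 10.99, 4.97 and 7.97 CPM. Their log2 fold changes were 1.66 (adjusted p = 0.0265) and 1.99 (adjusted p = 0.0345), and each was lost when single libraries were left out. For PIF3 this held for each of the 6 libraries compared (adjusted p = 0.0538 to 0.128), and for GNC for replicates 1 and 2 of cpr5 and 1 and 3 of xpo4-2 cpr5 (adjusted p = 0.0564 to 0.104).

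Across the 11 libraries the levels of the genes ran alike, apart from CAO. The correlation of a gene's log2 CPM with the mean of the other 9 was 0.89 (GUN4) to 0.97, and 0.49 for CAO, with pairs other than those of CAO between 0.79 and 0.99. The libraries share genotype and library makeup, so these values describe the 4 genotypes more than 11 independent points. Outside the 10 genes, the profile most like their mean was that of AT5G39530, annotated as a hypothetical protein, with a correlation of 0.993 over 11 libraries and means of 18.1 CPM in xpo4-2 cpr5, 46.0 CPM in cpr5, 72.5 CPM in xpo4-2 and 62.3 CPM in wild type. The next were emb2738, a GTP-binding protein (0.989), AT1G15730, a CobW-like protein (0.988), AT1G06360, a fatty acid desaturase family member (0.988), and EMB3105, a ribosomal protein family member (0.987). RRF, the chloroplast ribosome recycling factor, closed the list of the 10 most alike at 0.986.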

How the data were processed

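The deposited count table holds whole-number counts per gene for 11 libraries, and the deposited table of transcripts-per-million values (TPM) names kallisto in its title. The TAIR10 genome, HTSeq 0.6.1p1 and HISAT2 2.0.4 are named, per the submitters' processing notes, with no step assigned to any of them. The sources used here do not give the strand setting of the counting. The tables share their libraries, so TPM is not an independent measurement. The deposited counts were fitted with edgeR 4.0.16 in R 4.3.3 (TMM scaling, filterByExpr, which removed 580 genes and kept 21580, 1 quasi-likelihood fit of all 11 libraries, 6 comparisons). P-values were Benjamini-Hochberg adjusted over all genes tested, at a threshold of 0.05. CPM values are TMM-scaled. DESeq2 1.42.0 and limma 3.58.1 on log2(TPM + 0.5) of the deposited TPM were alternatives, with others listed in the closing section. The fit was tested on simulated data. Gene TPM is the sum over listed transcripts. Common dispersion was 0.093.

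Members and lists were chosen, and alternatives set, with earlier results of these data known. Named genes are all 10 enzymes, called members of the other lists, and the 10 genes with the most alike profile. Genes were matched by gene code to RefSeq's TAIR10.1, since the reference gives the symbol CAO to another gene. Of the 10 genes 7 overlap another annotated gene, GUN4 along 946 bases on the opposite strand and the others along at most 259 bases, so those counts depend on how reads were assigned. Motifs were found by exact match in 250-base windows before gene starts (27443 genes).

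Same-numbered replicates of different genotypes did not deviate together. The correlation of their deviations lay between -0.08 and 0.18 over 15 pairs and exceeded 0.1 in 1, so the numbers were not taken as pairs.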

Additional observations from a re-analysis of the deposited data

Results flagged for a closer look

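For 21 genes the effect of xpo4-2 in the cpr5 background differed from its effect in wild type by edgeR's test of the interaction (adjusted p under 0.05). They are 6 of the 10 enzymes and 15 of the 48 list genes tested, where 1189 genes (5.51%) were called lower and 691 (3.2%) higher over all genes tested. Values are log2 differences of effects. Of the 10 enzymes, these were CHLH at -2.36, CRD1 at -1.88, CHLM at -1.70, PORC at -1.62, CHLI1 at -1.27 and GUN4 at -1.25. Of the chlorophyll branch they were CHLP at -2.01, DVR at -1.86, LCAA at -1.26, CHLI2 at -1.19 and CHLD at -0.87. Of the earlier steps they were HEME1 at -1.27, GSA2 at -1.24, PPOX1 at -1.07, HEMC at -1.04, GSA1 at -0.76 and HEMB1 at -0.70. UPM1 was at -0.80 and HCAR at -0.84. Above 0 were PIF3 at 4.005 and AT4G17840 at 0.85. Among the 15 genes outside the 10 enzymes, 4 passed in every alternative: GSA2, CHLD, CHLP and DVR. PIF3 rested on xpo4-2 replicate 1, without which the adjusted p was 0.0657. The sum of the green tissue markers moved the same way as these genes that fell, and its part in the result was not tested.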

How the results depend on the processing

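Alternatives were other scaling (none, or DESeq2's size factors), DESeq2, other filters, limma on TPM, a fit of only the groups compared, a replicate block and leaving out each library. Among the 10 enzymes the count called lower relative to cpr5 was 7 to 9 with a library left out, relative to wild type 8 to 9, relative to xpo4-2 9, in cpr5 0 to 2, and for the interaction 3 to 9 (3 with limma without a filter). In xpo4-2, 0 to 1 were called higher. With a library left out, the log2 ratio difference of PORB to PORC between xpo4-2 cpr5 and wild type was 0.66 to 0.85. That of HEMA1 to HEMA2 changed sign in xpo4-2 cpr5 against cpr5 (-0.04 to 0.27) and in xpo4-2 against wild type (-0.03 to 0.57). That of CHLI1 to CHLI2 changed sign in xpo4-2 cpr5 against xpo4-2 (-0.14 to 0.10) and in xpo4-2 against wild type (-0.15 to 0.09).

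Over all genes, counts are given as higher and lower. In xpo4-2 cpr5 against cpr5 they were 1904 and 2778, with a library left out 852 to 2523 and 1819 to 3107, with no scaling 4247 and 1787, and with limma 5458 and 1708 (pseudocount 0.5), 5006 and 1677 (0.1) or 4623 and 1403 (no filter). With only those groups 3127 were higher. Against wild type they were 3900 and 4111, left out 3035 to 4254 and 3525 to 4192, higher with no scaling 6495, and with limma 8217 and 2545, 8010 and 2502 or 7385 and 2261. Against xpo4-2 they were 2841 and 3348, left out 1315 to 3399 and 1928 to 3638, with no scaling 4852 and 2155, and with limma 6150 and 1959, 5941 and 1945 or 5327 and 1741. In cpr5 against wild type they were 928 and 505, left out 357 to 1274 and 98 to 826, with DESeq2 1520 and 1092, and lower 235 with limma without a filter. In xpo4-2 against wild type they were 163 and 423, left out 12 to 225 and 44 to 545, with DESeq2 628 and 1216, with only those groups 0 and 1, and lower 243 with limma without a filter. For the interaction they were 691 and 1189, left out 211 to 1122 and 416 to 1614, with no scaling 1354 and 784, higher with DESeq2 1345, and with limma 1532 and 756, 1365 and 732 or 1164 and 524. The cause of these shifts was not tested.

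With the replicate number as a block, 8, 9 and 9 enzymes were lower in the 3 double-mutant comparisons, 0 in each single mutant and 5 for the interaction, where GUN4 was lost (adjusted p = 0.0727) and the genes higher numbered 444 over all genes. The numbers are shared labels and no known pairing.

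With limma on TPM 2 list genes changed sign against wild type in xpo4-2 cpr5, GSA1 (0.086, 0.087 and 0.086 at pseudocount 0.5, at 0.1 and without a filter) and NYC1 (0.036, 0.036 and 0.036). Limits are the 2 xpo4-2 libraries, the wide spread in wild type, where replicates 1 and 3 lay farthest apart, and the low counts of PORA, whose sizes of change are uncertain.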

Other observations

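The deposited TPM table lists 1 transcript model for HEMA1, CHLI1, GUN4 and CHLG, 2 for CHLH, CRD1, PORB and PORC, 4 for CAO and 6 for CHLM. The split between models is an estimate from short reads. For PORC the share of the model numbered 2 ranged from 10.6% to 66.4% among the 3 wild type libraries, so the models of this gene were not compared between genotypes.

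The share of counts from the plastid genome was 0.133% to 0.177% in xpo4-2 cpr5 and 0.142% to 0.165% in cpr5, against 0.167% to 0.314% in xpo4-2 and 0.300% to 0.439% in wild type. The double mutant overlapped both single mutants, and wild type lay above both genotypes that carry cpr5. The part of these shares in the results was not tested.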
